A study of Saccharomyces cerevisiae with 9 samples.

Results

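The mating-type cassettes and the genes that silence them were followed in 8 yeast genes. HMRA1, HMRA2 and HMLALPHA1 lie in the cassettes, SIR1, SIR2, SIR3 and SIR4 encode the silencing proteins, and HO encodes the endonuclease that starts mating-type switching. The genes were chosen by symbol in the probe annotation. Each had 1 probe set, so all 8 were measured among the 5359 probe sets of 5311 Saccharomyces cerevisiae genes that were tested, out of 9676 on the array.

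Budding yeast has an active mating-type locus, MAT, and a silent copy of each mating-type allele, alpha information at HML and a information at HMR. The Sir proteins bind the silencers and the chromatin of HML and HMR and keep them untranscribed. Alpha1 activates the alpha-specific genes. Alpha2 represses the a-specific genes, and together with a1 it represses haploid-specific genes, HO among them. The HO nuclease cuts MAT, which is then repaired from one of the cassettes.

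Cells of the SK1 strain, a background that sporulates well, were compared as wild type (WT) and as ime4-/- (ime4), which lacks the RNA methyltransferase gene IME4. Both were taken from rich medium (YPD) and 4 h after a shift to sporulation medium (SPO, 1% potassium acetate). There were 2 arrays of WT in YPD, 3 of WT in SPO, 2 of ime4 in YPD and 2 of ime4 in SPO, described as biological replicates. The labels give no mating type, no ploidy, no extent of the deletion and no state of the HO gene. Values are intensities on a linear scale, or their log2. As background level served the value that 95% of the probe sets for another yeast species did not exceed, at 8.1 to 9.64 in intensity (log2 3.02 to 3.27). The median log2 of the tested sets moved by 0.1025 between the media in WT and by less in the other comparisons, and each difference is one relative to the rest of the transcripts. IME4 itself read 5.35 to 7.14 log2 on the WT arrays and 2.14 to 2.54, under background, on those of ime4.

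Some probe sets cannot separate the cassettes from MAT. The names of the HMLALPHA1 and HMRA2 sets end in a suffix used for probes that match more than 1 sequence. The alpha1 gene is present at both HML and MAT, and the a2 gene matches the 3′ part of the alpha2 gene. HMRA1 was the only a1 entry in the gene table used, that of assembly R64, whose MAT locus holds alpha1 and alpha2. A strain with the a allele at MAT would be read by the same probes. No reading above background here therefore tells transcription of a cassette from transcription of MAT. On every ime4 array in YPD the HMRA1 set was under background, so there it detected a1 from neither locus.

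The cassette genes split the genotypes. The a1 transcript, which encodes a homeodomain corepressor, was read by the HMRA1 (YCR097W) set at intensities of 262.0 and 263.2 in WT in YPD. It stood at 444.3, 436.5 and 448.0 in WT in SPO. In ime4 it stood at 3.8 and 3.1 in YPD and at 6.6 and 9.7 in SPO. All 5 WT arrays were far above all 4 ime4 arrays, of which 1, in SPO, lay above background, by 0.26 log2. HMRA1 was at least 28.7-fold lower in ime4 in YPD (log2 1.78 ± 0.208 against 8.04 ± 0.00466, SD, n = 2 and 2, limma adjusted p = 6.32e-09). In SPO the fall in ime4 was 55.4-fold (3.0 ± 0.393 against 8.79 ± 0.0192, n = 2 and 3, limma adjusted p = 5.22e-09), a size that is uncertain because 1 of the 2 ime4 arrays was under background. Within WT, HMRA1 rose in SPO by 0.75 log2 (SE 0.14, adjusted p = 0.000567). No change between the media is given for ime4, where 3 of 4 arrays were under background.

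HMLALPHA1 (YCL066W), the gene of the activator alpha1, went the opposite way. Its intensities were 18.5 and 18.3 in WT in YPD, and 17.2, 15.6 and 14.5 in WT in SPO. They were 480.4 and 481.0 in ime4 in YPD, and 214.7 and 205.6 in ime4 in SPO. The genotypes did not overlap in either medium, and every WT array stood 0.82 to 1.02 log2 above the background level. HMLALPHA1 was 26.1-fold higher in ime4 in YPD (log2 difference 4.71, SE 0.0736, adjusted p = 3.17e-10) and 13.4-fold higher in SPO (3.74, SE 0.0672, adjusted p = 1.49e-09). Between the media it fell in ime4 by 1.19 log2 (SE 0.0736, adjusted p = 1.77e-07). In WT it fell by 0.23 log2 (SE 0.0672, adjusted p = 0.00959), while the background level itself was 0.19 log2 lower in SPO than in YPD. The part of that shift in the small WT fall was not tested. The response in ime4 was lower than in WT by 0.97 log2 (interaction adjusted p = 3.04e-05). With quantile normalization the WT fall became -0.954 and the interaction -0.259 (adjusted p = 0.0314).

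HMRA2 (YCR096C), named for the a2 gene, which has no known function, did not follow HMRA1. Its probe set read 363.9 and 369.4 in WT in YPD and 2083.6, 2058.7 and 1886.5 in WT in SPO. In ime4 it read 768.2 and 828.1 in YPD and 5508.0 and 5290.3 in SPO. The 4 groups were apart from each other, in the order WT in YPD, ime4 in YPD, WT in SPO and ime4 in SPO from lowest to highest. HMRA2 was 2.18-fold higher in ime4 in YPD (adjusted p = 2.1e-06) and 2.69-fold higher in SPO (adjusted p = 5.61e-08). It rose from YPD to SPO 5.48-fold in WT (log2 2.45, SE 0.058, adjusted p = 1.04e-10) and 6.77-fold in ime4 (log2 2.76, SE 0.0635, adjusted p = 2.54e-10). The rise in ime4 exceeded that in WT by 0.31 log2 (SE 0.086, interaction adjusted p = 0.0117). In ime4 the HMRA1 set was lower and the HMRA2 set higher than in WT. The genes are adjacent and divergent at HMR, but the HMRA2 probes are shared and a2 matches part of alpha2. Whether these opposite differences come from neighbouring genes therefore cannot be told, and was not tested.

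**Figure D1:**
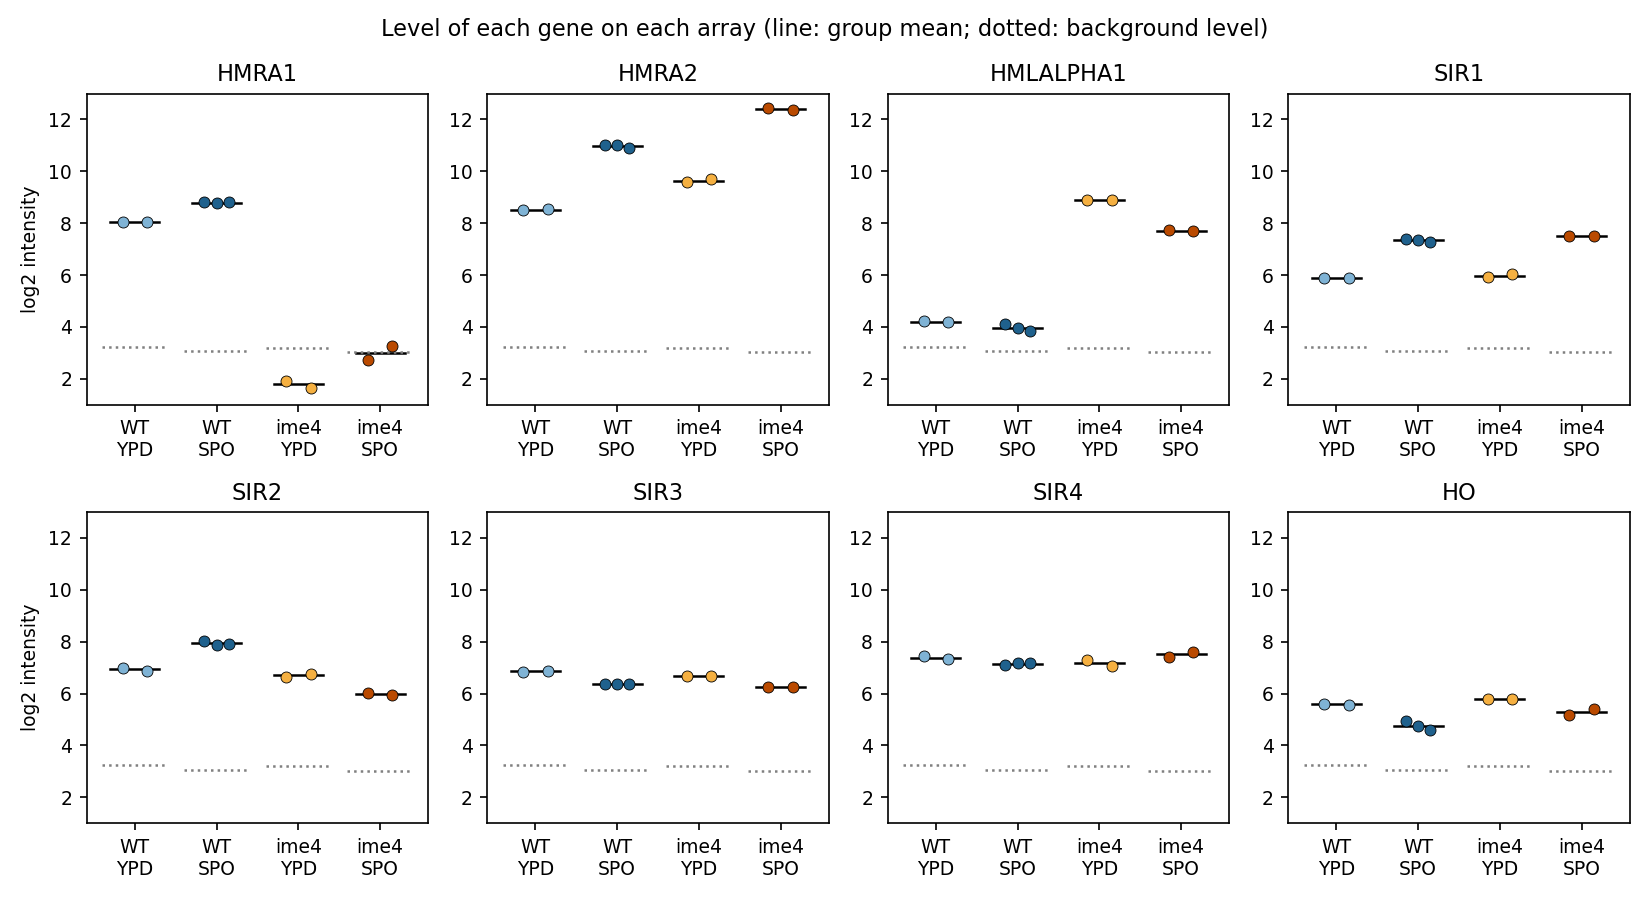
Log2 intensity of the 8 genes (vertical axis) on each of the 9 arrays, by group, with the group mean as a line and the mean background level of the group's arrays as a dotted line. HMRA1 falls to background in ime4, HMLALPHA1 lies near background in WT, and SIR2 is highest in WT in SPO and lowest in ime4 in SPO.

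Other markers of mating type moved with these genes. Of 7 a-specific genes, 7 were lower in ime4 than in WT in both media, and of 5 alpha-specific genes, 5 were higher. Of all sets, 18.7% were lower and 21.3% higher in YPD, and 39.4% and 34.1% in SPO. The summed intensity of the 7 a-specific genes was 3564 to 3694 in WT in YPD and 2701 to 2832 in WT in SPO, against 140 to 151 and 280 to 282 in ime4. That of the 5 alpha-specific genes was 349 to 372 and 275 to 297 in WT, against 8216 to 8322 and 1910 to 2006 in ime4. MFA2, which encodes a-factor, was at background on both ime4 arrays in YPD. No marker of either list was at background on all arrays of a WT group. Loss of IME4 and this mating-type pattern cannot be told apart in any genotype difference given here, and their parts were not tested.

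Across the 8 genes, 5 passed the threshold between the genotypes in YPD (2 higher and 3 lower in ime4), where 40.0% of all tested sets passed. In SPO 8 of 8 passed (5 higher and 3 lower), against 73.4% of all sets. Between the media 8 of 8 passed in WT (4 higher and 4 lower in SPO, background 90.0%) and 8 of 8 in ime4 (4 and 4, background 86.0%), HMRA1 in ime4 being a call among values mostly under background. Most counts are therefore near those of the array as a whole. The arrays of the groups did not overlap for 8 of 8 genes in each of these comparisons, in which 71.1%, 81.3%, 92.5% and 93.2% of all sets did not overlap. Counted with a change of at least 2-fold, 3 of 8 passed between the genotypes in YPD, where 1.88% of all sets did, and 4 of 8 in SPO, where 7.43% did. Those in YPD were the 3 cassette genes, and SIR2 joined them in SPO. Between the media 3 of 8 passed at that size in WT (43.2% of all sets) and 4 of 8 in ime4 (33.4%). Those in ime4 include HMRA1, with its values mostly under background. The median log2 difference of the 8 genes was -0.05 in YPD and 0.26 in SPO for ime4 against WT, beside 0.02 and -0.04 over all tested sets.

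SIR2 (YDL042C) changed in opposite directions in the 2 genotypes. It encodes the NAD-dependent histone deacetylase of the Sir complex, which also acts at the ribosomal DNA. Its intensities were 128.0 and 117.5 in WT in YPD and 260.6, 234.6 and 242.9 in WT in SPO. In ime4 they were 99.6 and 108.5 in YPD and 64.7 and 62.3 in SPO. No arrays overlapped between any of the 4 groups, with WT in SPO highest, then WT in YPD, ime4 in YPD and ime4 in SPO. SIR2 rose in WT by 1.00 log2 (SE 0.0644, adjusted p = 1.71e-07) and fell in ime4 by 0.71 log2 (SE 0.0706, adjusted p = 6.5e-06). The interaction was -1.71 log2 (SE 0.0956, 95% interval -1.93 to -1.50, adjusted p = 9.53e-07), larger in size than that of 98.5% of all tested sets. In SPO, SIR2 was lower in ime4 by 3.87-fold (log2 5.99 ± 0.0386, SD, n = 2, against 7.94 ± 0.0773, n = 3, limma adjusted p = 2.14e-08), ranked 13 among the falls. In YPD it was 1.18-fold lower (adjusted p = 0.0249), a call lost without WT replicate 1 in YPD (adjusted p = 0.146) or ime4 replicate 1 in YPD (0.15).

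In none of the other SIR genes was a rise in WT joined to a fall in ime4. SIR1 (YKR101W), whose product binds the origin recognition complex at the silencers and helps to establish silencing, responded mainly to the medium. It stood at 59.8 and 59.2 in WT and 61.4 and 65.1 in ime4 in YPD, and at 167.5, 162.1 and 154.0 in WT and 181.5 and 181.2 in ime4 in SPO. Every SPO array was above every YPD array. SIR1 rose 2.71-fold in WT (log2 1.44, SE 0.0504, adjusted p = 1.59e-09) and 2.87-fold in ime4 (1.52, SE 0.0552, adjusted p = 4.16e-09). The difference between these rises was 0.08 log2 with a 95% interval of -0.09 to 0.25 (adjusted p = 0.353). Between the genotypes it was 1.13-fold higher in ime4 in SPO (adjusted p = 0.0123), a call lost without ime4 replicate 1 in SPO (adjusted p = 0.0518) and, with replicate numbers as a block, at 0.0568. In YPD the difference of 0.09 log2 did not pass (95% interval -0.04 to 0.21, adjusted p = 0.238).

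SIR3 (YLR442C) encodes the Sir protein that binds nucleosomes and spreads along silent chromatin. It read 113.8 and 117.4 in WT and 101.3 and 101.5 in ime4 in YPD, and in SPO 81.5, 82.3 and 83.1 in WT and 76.4 and 76.6 in ime4. All SPO arrays lay below all YPD arrays. SIR3 fell 1.40-fold in WT (log2 -0.49, SE 0.0406, adjusted p = 1.28e-06) and 1.33-fold in ime4 (-0.41, SE 0.0445, adjusted p = 1.36e-05). In ime4 it was lower by 0.19 log2 in YPD (adjusted p = 0.00886, lost without WT replicate 2 in YPD at 0.052). In SPO it was lower by 0.11 (adjusted p = 0.0399), a call lost under 11 of 15 alternatives (adjusted p = 0.0529 to 0.196), among them centring on the array median.

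SIR4 (YDR227W) encodes the scaffold that joins Sir2 and Sir3 to the silencers. It read 173.3 and 159.7 in WT and 155.5 and 132.7 in ime4 in YPD, and in SPO 137.5, 142.8 and 145.0 in WT and 169.9 and 194.4 in ime4. The genotypes did not overlap in either medium, and ime4 was the lower one in YPD and the higher one in SPO. SIR4 fell in WT by 0.23 log2 (SE 0.0811, adjusted p = 0.0216), a call lost without WT replicate 1 in YPD (adjusted p = 0.144) or WT replicate 1 in SPO (0.0609). It rose in ime4 by 0.34 log2 (SE 0.0889, adjusted p = 0.00523), or by 0.225 without ime4 replicate 2 in YPD (adjusted p = 0.0489). The interaction of 0.57 log2 (SE 0.12, adjusted p = 0.00254) had the sign opposite to that of SIR2. In SPO SIR4 was 1.28-fold higher in ime4 (adjusted p = 0.00299). In YPD the difference of -0.21 log2 did not pass (adjusted p = 0.0878), but did without ime4 replicate 1 in YPD (-0.326, adjusted p = 0.0309) and after removal of the dimmest 25% of probe sets (adjusted p = 0.0489). Without ime4 replicate 2 in YPD it shrank to -0.097 (adjusted p = 0.465).

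HO (YDL227C) was above background on every array. It read 48.5 and 47.1 in WT and 54.8 and 54.7 in ime4 in YPD, and in SPO 30.8, 26.7 and 24.1 in WT and 36.2 and 42.2 in ime4. The SPO arrays were all below the YPD arrays, and ime4 was above WT in each medium. HO fell from YPD to SPO 1.77-fold in WT (log2 -0.82, SE 0.0983, adjusted p = 2.28e-05) and 1.40-fold in ime4 (-0.49, SE 0.108, adjusted p = 0.00194). It was 1.44-fold higher in ime4 in SPO (adjusted p = 0.000896). In YPD the difference of 0.20 log2 did not pass (95% interval -0.05 to 0.44, adjusted p = 0.18). The interaction of 0.33 log2 did not pass (adjusted p = 0.0704) but did with centring (0.396, adjusted p = 0.0326), without WT replicate 1 in SPO (0.428, 0.012) and without ime4 replicate 1 in SPO (0.445, 0.0363). With quantile normalization the fall in ime4 was -0.893. The interaction was 0.205 to 0.445 over the 15 alternatives, so the fall was larger in WT under each of them.

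Over the 8 genes the interaction passed for 4 (2 higher and 2 lower in ime4), beside 64.1% of all tested sets (29.5% higher and 34.6% lower). Those were HMRA2, HMLALPHA1, SIR2 and SIR4, and only SIR2 exceeded 2-fold, which 9.98% of all sets did. SIR2 and SIR4 were the members whose medium response had opposite signs, each past the threshold, in the genotypes, with the limits given above for SIR4.

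**Figure D2:**
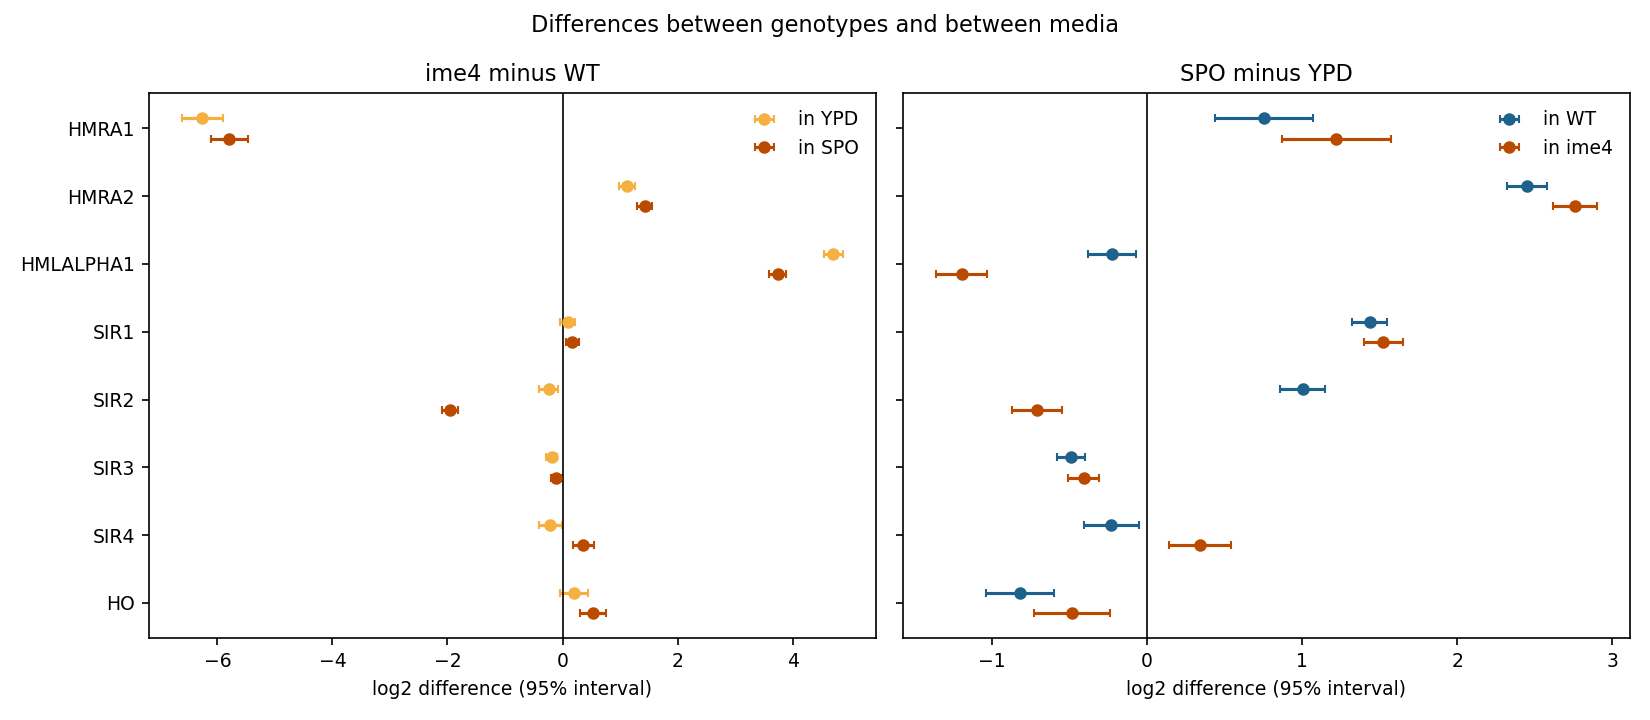
Log2 differences of the 8 genes (horizontal axes, points with 95% intervals from limma), on the left for ime4 minus WT in each medium and on the right for SPO minus YPD in each genotype. The SIR2 points for the media lie on opposite sides of 0, at 1.00 in WT and -0.71 in ime4. The HMRA1 values of ime4 rest on arrays mostly under background.

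The partners of the Sir proteins did not join a rise in WT to a fall in ime4 as SIR2 did. The list held 24 genes of silencer binding, histone modification, histone deposition and telomere length, all measured. From YPD to SPO 4 rose and 15 fell in WT (46.9% and 43.1% of all sets did so), and 7 rose and 13 fell in ime4 (44.0% and 42.0%). The medians were -0.55 and -0.33 log2, beside 0.05 and 0.04 over all sets. ORC2, a subunit of the origin recognition complex that binds the silencers, fell by 1.41 in WT and by 0.78 in ime4. ABF1, a silencer-binding factor, fell by 1.59 and by 1.07. ARD1, a catalytic subunit of the N-terminal acetyltransferase that modifies Sir3, fell by 1.44 and by 1.18, and RIF1, which competes with Sir proteins for Rap1 at telomeres, fell by 1.18 and by 0.38. RAP1, the silencer and telomere binding factor itself, fell by 0.56 and by 0.43. The 4 that rose in WT, SAS5 (1.24), ESC1 (0.67), RIF2 (0.51) and ORC6 (0.28), rose in ime4 as well.

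Between the genotypes, 12 of the 24 partners were higher and 3 lower in ime4 in SPO (34.1% and 39.4% of all sets), with a median of 0.22 log2 against -0.04 over all sets. NET1, the nucleolar anchor of Sir2, was 1.06 log2 higher (adjusted p = 2.21e-06), and it fell in WT while rising in ime4 between the media. DOT1, the histone methyltransferase that limits Sir spreading, was 0.75 higher, RIF1 0.61, ORC2 0.57, ABF1 0.43 and ARD1 0.38. The 3 lower genes were RIF2, SAS4 and SAS5, and SAS4 and SAS5 belong to the histone acetyltransferase complex that counters the spread of Sir proteins. In YPD 1 was higher and 3 lower (21.3% and 18.7% of all sets). Without WT replicate 1 in YPD 2 of the 24 passed in YPD. The higher gene was RLF2 of chromatin assembly, and the lower ones were RAP1, RIF1 and HTZ1, which encodes a histone variant at the borders of silent chromatin. NET1, DOT1, RAP1, RIF2, SAS4, SAS5, ESC1, ORC6, RLF2 and HTZ1 were picked after their values had been seen.

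Of the 4 homologs of SIR2, 3 were measured. HST1, which acts with Sum1 as a repressor of middle meiotic genes, rose by 0.72 log2 in WT and by 1.08 in ime4, and was 0.33 higher in ime4 in SPO (adjusted p = 0.00017). HST4 rose by 1.00 and by 0.83, and its difference in SPO did not pass (adjusted p = 0.93). HST2 rose by 0.84 in WT, with a difference of 0.08 in ime4 that did not pass (adjusted p = 0.268), and was lower in ime4 in SPO (log2 -0.399, adjusted p = 0.000218). All 3 interactions passed, at 0.36 for HST1, -0.76 for HST2 and -0.17 for HST4 (adjusted p = 0.00178, 6.31e-05 and 0.0493), where 64.1% of all sets passed, but with any 1 array left out other than WT replicate 3 in SPO, only 2 of the 3 passed. In YPD, HST2 was 0.363 log2 higher in ime4 (adjusted p = 0.00218), opposite to SPO, and HST4 0.164 higher (0.0258), while HST1 did not pass (-0.024, adjusted p = 0.74). Without WT replicate 1 or 2 or ime4 replicate 2 in YPD, 1 of the 3 passed in YPD. None of the 3 fell between the media in ime4 as SIR2 did.

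Of 15 regulators of HO, 13 were measured, and in WT 6 rose and 6 fell between the media (46.9% and 43.1% of all sets), while in ime4 4 rose and 7 fell (44.0% and 42.0%). In SPO 2 were higher and 7 lower in ime4 (34.1% and 39.4% of all sets), and in YPD 1 was higher and 4 were lower (21.3% and 18.7%). The medians were -0.18 log2 in SPO and -0.01 in YPD, beside -0.04 and 0.02 over all sets. SWI5, the activator that turns on HO in mother cells, fell by 1.65 log2 in WT and by 0.73 in ime4, and was 1.28 higher in ime4 in SPO (adjusted p = 1.92e-07) and 0.36 higher in YPD (0.00344). ASH1, the repressor of HO in daughter cells, fell by 0.74 and by 1.23, and was lower in ime4 in SPO (log2 -0.285, adjusted p = 0.00382). NHP6A, a chromatin architectural protein, fell by 1.98 and by 1.11 and was 0.745 log2 higher in ime4 in SPO (adjusted p = 4.47e-06). SNF2, the ATPase of the SWI/SNF remodeller that HO needs, was lower in ime4 in both media (-0.51 in YPD, adjusted p = 0.000276, and -0.66 in SPO, adjusted p = 5.62e-06). HO and the 2 higher regulators, SWI5 and NHP6A, were higher in ime4 in SPO, while ASH1 and SNF2 were among the 7 lower ones. The rest of the 7 were SWI6 (log2 -0.545), SNF6 (-0.423), RPD3 (-0.259), SWI1 (-0.24) and WHI5 (-0.177). These were named after their values had been seen.

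**Figure D3:**
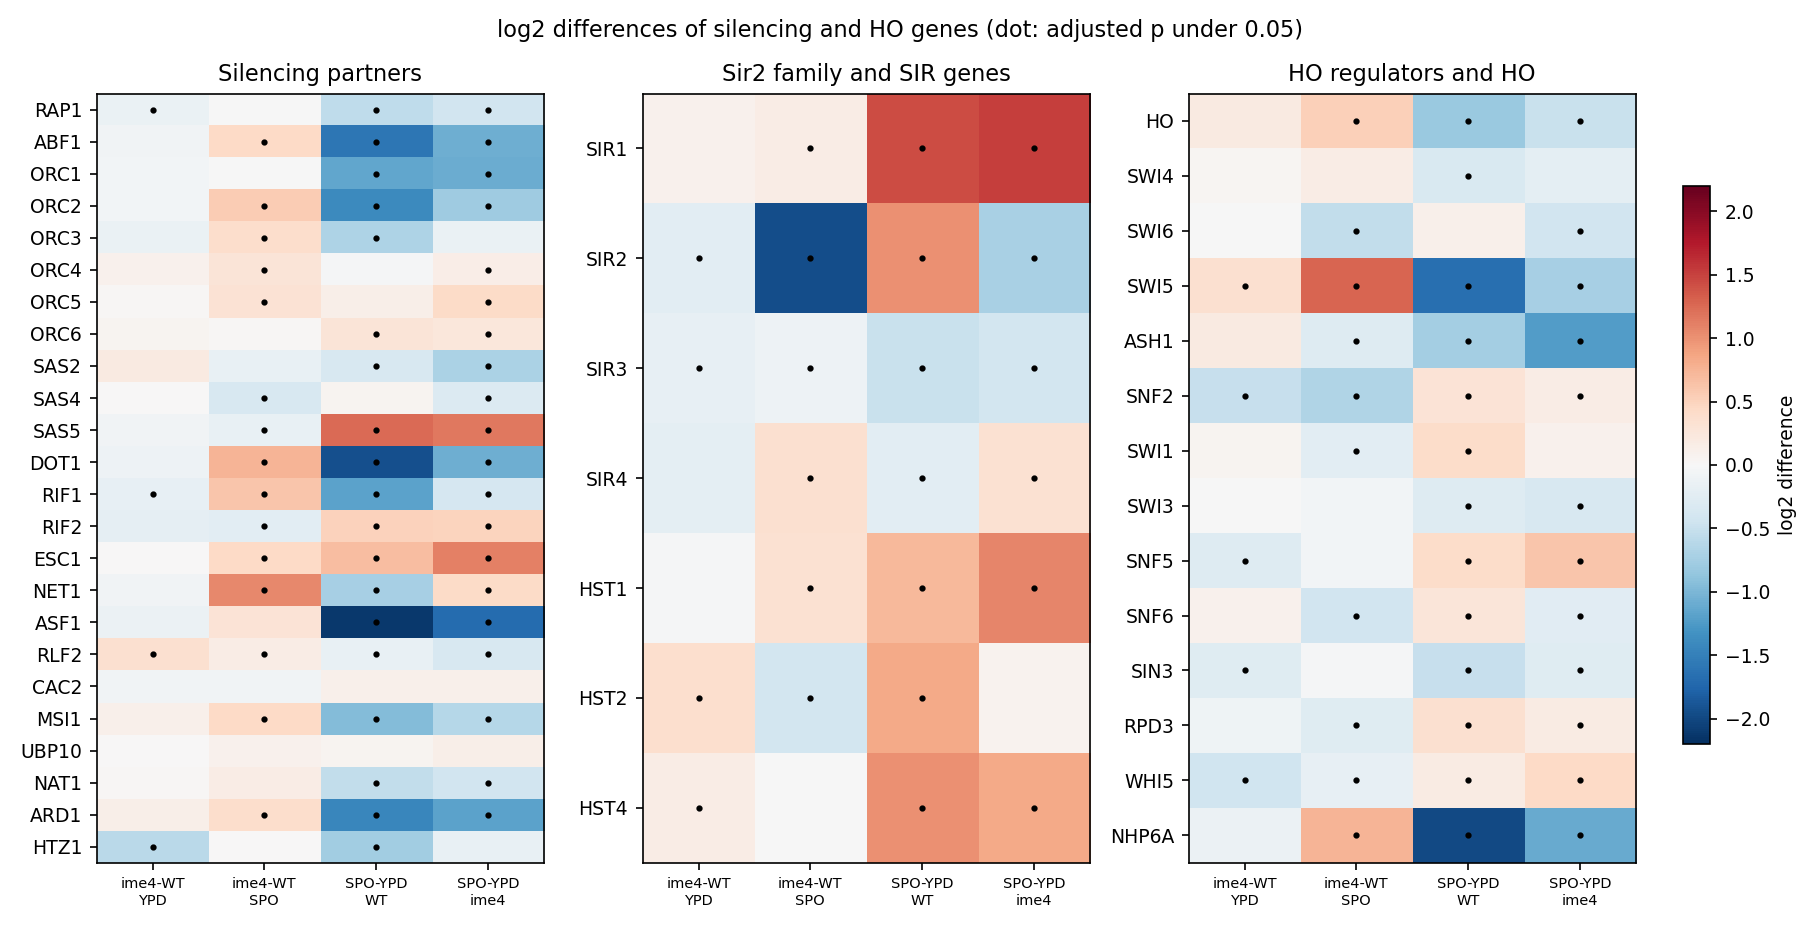
Log2 differences (colour) in the 4 comparisons (columns) for 24 silencing partners, the SIR genes with the 3 measured SIR2 homologs, and HO with its 13 measured regulators (rows). A dot marks an adjusted p under 0.05. SIR2 is blue in ime4 against WT in SPO, where NET1, HST1 and SWI5 are red.

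The genes beside the loci were examined, 3 annotated genes on each side of HML, MAT and HMR on chromosome III in the R64 gene table. Of these 18 genes 14 were measured. Between the genotypes 6 were higher and 1 lower in ime4 in YPD (21.3% and 18.7% of all sets), with a median of 0.23 log2 beside 0.02 over all sets. In SPO 5 were higher and 3 lower (34.1% and 39.4%), with a median of -0.00 beside -0.04. CHA1, the serine and threonine deaminase gene next to HML, was 1.61 higher in YPD (adjusted p = 1.08e-06) and 1.11 higher in SPO (1.2e-06), and fell between the media in both genotypes, by 2.56 in WT and by 3.06 in ime4. VAC17, an adaptor for vacuole inheritance, was 0.24 and 0.39 higher, and MRC1, a mediator of the S-phase checkpoint, 0.295 and 1.388 log2 higher. On the other side of HML, the YCL068C, VBA3 and GEX1 sets did not pass between the genotypes in either medium. VBA3 lay at background on every array of 3 groups and GEX1 on every array in YPD, and all 3 of these genes are read by shared probes. At MAT, BUD5 of bud site selection, the nearest gene on the side of alpha2, was 0.275 log2 higher in ime4 in YPD (adjusted p = 0.00464) and 0.136 higher in SPO (0.0381). RBK1 was lower in ime4 in SPO (log2 -0.231, adjusted p = 0.0142) and did not pass in YPD (0.0905). PHO87 (0.482 and 0.134) and TAF2 (0.824 and 0.895) did not pass in either medium.

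Beside HMR, GIT1, a glycerophosphoinositol permease gene, was 0.80 log2 higher in ime4 in YPD (adjusted p = 0.000451) and lower in SPO (log2 -0.363, adjusted p = 0.00807). It rose in WT by 2.80 and in ime4 by 1.63 between the media. YCR099C was lower in ime4 in both media (-0.89 in YPD, adjusted p = 0.000273, and -0.57 in SPO, adjusted p = 0.000603). OCA4 did not pass in either medium, and CDC50, a flippase subunit gene, was higher in both (log2 0.354 and 0.589). The HMLALPHA1 and HMRA1 sets, which do not separate the cassettes from MAT, differed more between the genotypes than any measured neighbour. This did not hold for HMRA2, as in YPD CHA1 differed more (log2 1.61 against 1.121). In SPO MRC1 came close to HMRA2 (1.388 against 1.427). BUD5, PHO87, RBK1, TAF2, YCR099C, OCA4, CDC50, YCL068C, VBA3 and GEX1 were named after their values had been seen.

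**Figure D4:**
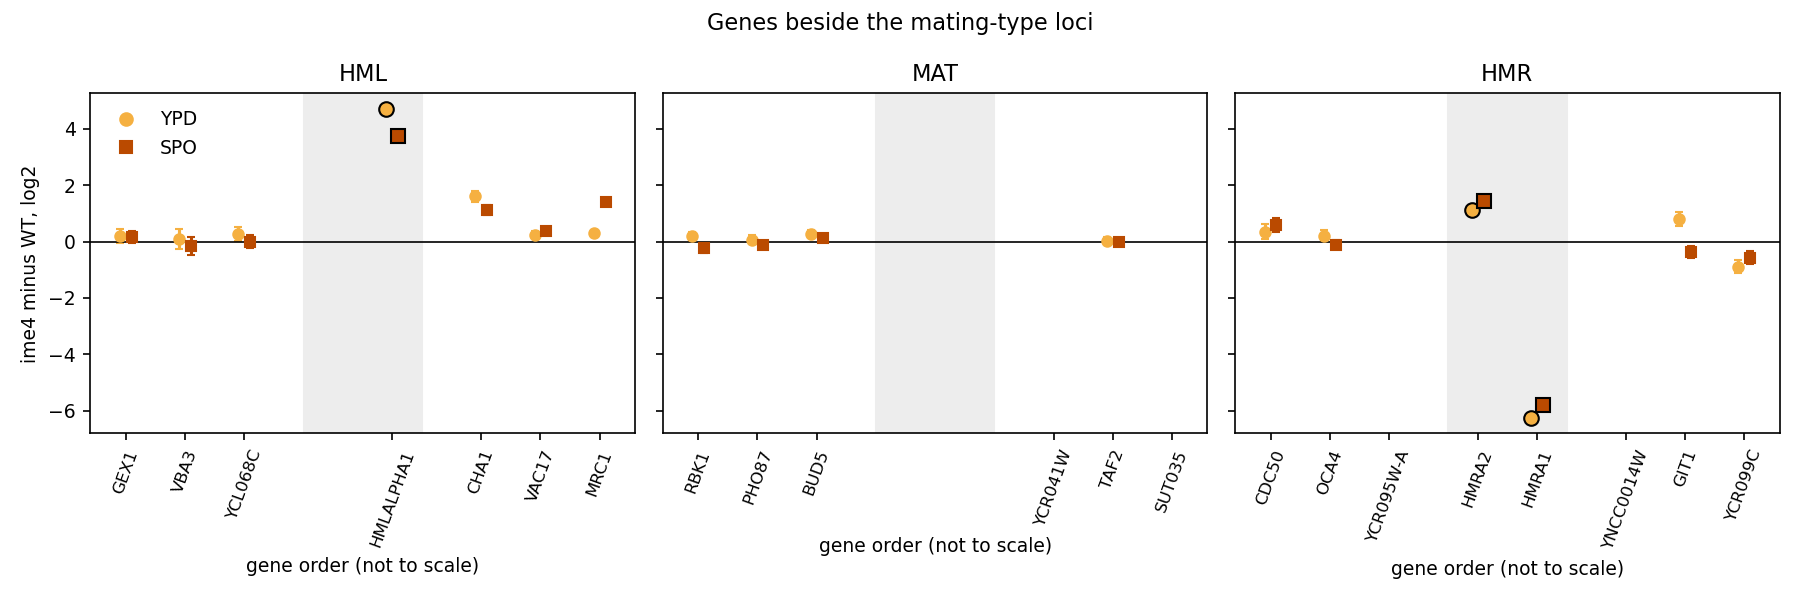
Log2 difference of ime4 minus WT (vertical axis, 95% intervals) in YPD (circles) and SPO (squares) for the 3 annotated genes on each side of HML, MAT and HMR in gene order, which is not to scale. Outlined symbols in the grey band are the cassette genes, drawn without intervals, and gene names without a symbol were not measured. The cassette genes are placed by the locus of their annotation, but their sets do not separate the cassettes from MAT. The empty band at MAT therefore does not mean that no difference arose there.

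The probe sets with the most similar profile were found by the root mean square difference of log2 values, each centred on its own mean over the 9 arrays. For HMRA1 these were the a-specific genes MFA2 (0.60), STE2 (1.02) and AGA2 (1.15), distances that rest in part on values at background, on both ime4 arrays in YPD for HMRA1 and MFA2 and on 1 of them for STE2 and AGA2, and on 1 ime4 array in SPO for HMRA1 and AGA2. For HMLALPHA1 they were the alpha-specific genes STE3 (0.41), MF(ALPHA)1 (0.60) and AFB1 (0.71). For HMRA2 they were YLR030W (0.15) and the Ty retrotransposon Gag genes YBL100W-A (0.25) and YAR010C (0.28). YLR030W had a mean log2 of 2.59 in WT in YPD, under the background level. For SIR2 they were CTR3 (0.11), which encodes a copper transporter, IXR1 (0.27), a transcriptional repressor of hypoxic genes, and MIX14 (0.33), a mitochondrial protein gene. CTR3 stood at 10.50 and 11.44 log2 in WT and at 10.25 and 9.70 in ime4, in YPD and SPO.

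For SIR1 the nearest were SCC4 of cohesin loading (0.029), MLF3 (0.06) and the biotin transporter gene VHT1 (0.074). For SIR3 they were RPS20 (0.054), RAP1 (0.054) and CPR3 (0.057), RAP1 being also a silencing partner. For SIR4 they were ALG14 (0.075), RTC1 (0.08) and the nucleoporin gene NSP1 (0.09), and for HO the bud neck gene BNI4 (0.071), the nuclear pore gene NUP60 (0.071) and EGO2 (0.091). SIR3 and SIR4 deviated from their own means by only 0.23 and 0.168 log2 (root mean square), so small distances are common for them. These distances describe likeness over 9 arrays in 4 groups and carry no test.

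**Figure D5:**
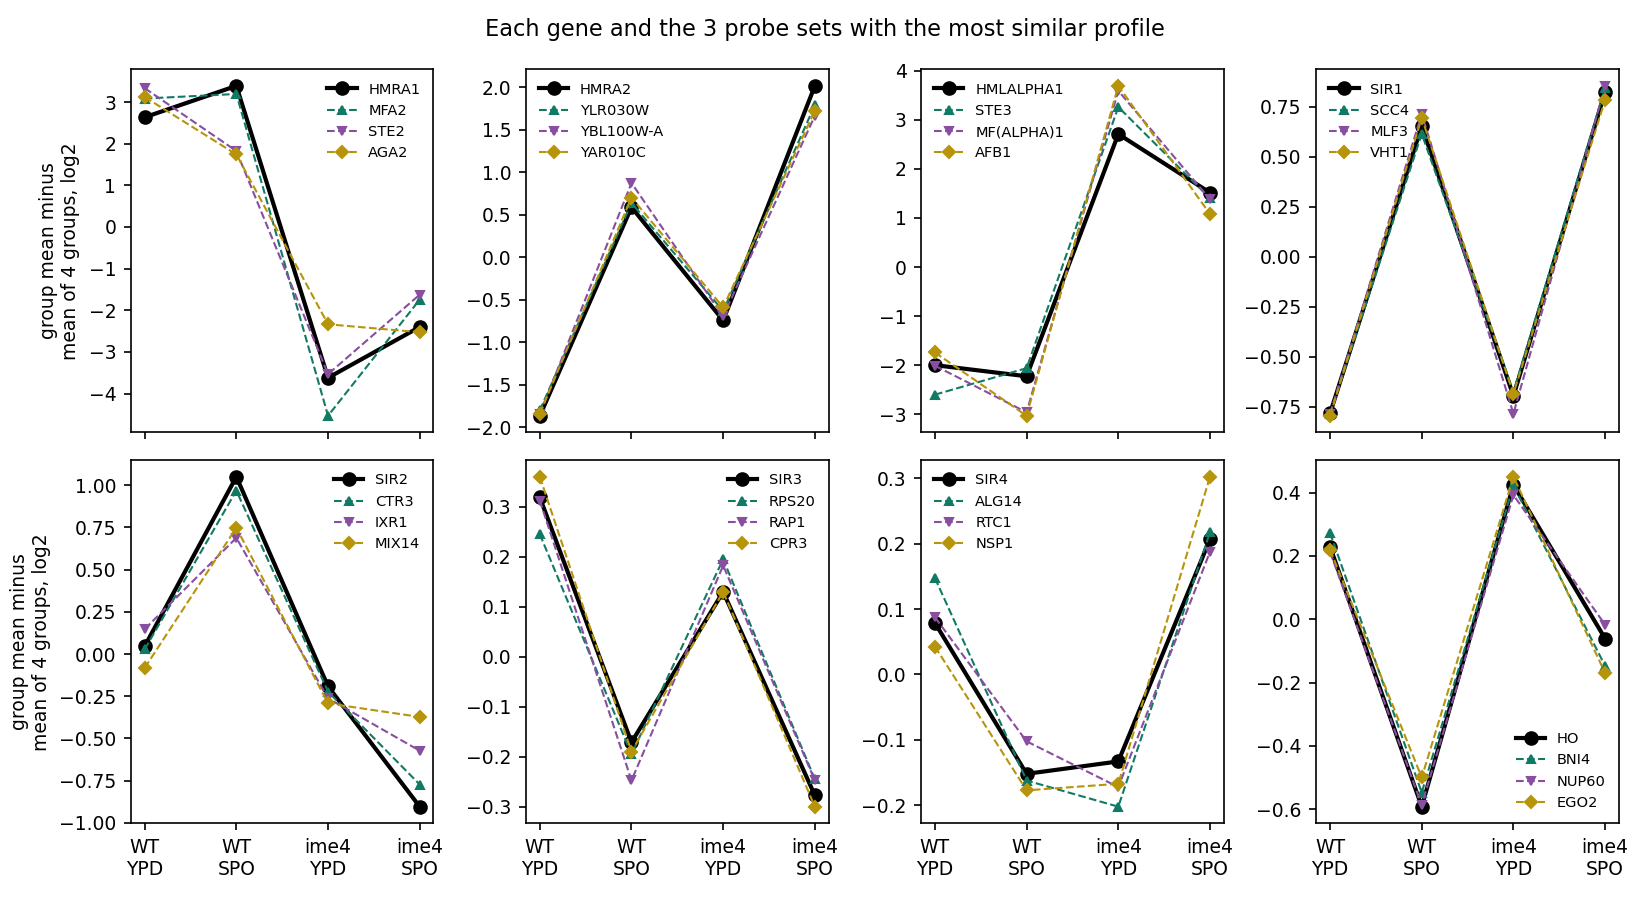
Group means of log2 intensity minus the mean of the 4 groups (vertical axes, which differ between panels) for each of the 8 genes (black) and its 3 nearest probe sets (dashed). The HMRA2 panel rises in SPO in both genotypes, and the SIR2 panel has its highest point in WT in SPO and its lowest in ime4 in SPO.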

How the data were processed

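Affymetrix arrays were hybridized with cDNA from 9 RNA samples (600 ng each, per the labels' protocols). The deposited values are intensity on a linear scale, made with RMA per the submitters' processing notes. Its software is not given in the sources used here, and log2 values were formed without an offset. Probe sets were named through a platform annotation joined by gene identifier to the R64 gene table (5359 matched, 12 symbols updated, 1413 of another species used for the background level). The 4 group means were fitted to all 9 arrays using lmFit and eBayes of limma 3.58.1 (R 4.3.3), with 5 contrasts, two-sided tests and Benjamini-Hochberg adjustment over the 5359 sets at 0.05. Genes are said to rise, fall, be higher or be lower past this threshold. A fold against a group at background on every array uses the level itself and is written "at least". The median residual SD was 0.0646 log2, and the number of arrays limits precision. The 2 ime4 arrays in SPO had identical values for 272 sets, against 59 to 99 for other pairs within a group. The cause was not tested, and how much biological spread the SDs and p-values cover cannot be told. The fit was tested on simulated data. Members and lists were chosen with earlier results of these data known. Named were the 8 genes, the 3 most similar probe sets of each, up to 4 list genes with the smallest p, and the exceptions stated. HST3, GCN5, MBP1, 4 cassette neighbours and the listed MAT and HML copies had no named probe set. Promoter and protein sequence was not used here.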

Additional observations from a re-analysis of the deposited data

Results flagged for a closer look

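The response to the medium differed between the genotypes by a test of the difference itself (limma interaction, adjusted p under 0.05) in 4 of the 8 genes. The response in ime4 minus that in WT was 0.306 log2 for HMRA2, where both genotypes rose, and -0.968 for HMLALPHA1, where both fell and WT lay near background. It was -1.714 for SIR2, which rose in WT and fell in ime4. It was 0.57 for SIR4, which fell in WT and rose in ime4. That WT fall shrank to -0.172 log2 without WT replicate 1 in YPD. Without WT replicate 1 in SPO it did not pass (-0.209, limma adjusted p = 0.0609).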

How the results depend on the processing

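Each of the 40 member values was recomputed under 16 alternatives, or under 15 for the genes that the filter on dim probe sets removed. Of the 620 resulting values 591 kept their side of the threshold and, where called, their direction, 18 lost the call, 8 gained it and 3 turned. HMRA1 between the media in ime4 was -0.037 with values under background set to it, and its interaction was -0.791 that way and -0.411 with an offset of 16. Leaving out the dimmest 25% of probe sets removed HMRA1, HMLALPHA1, SIR3 and HO, so the members called became 3 between the genotypes in YPD, 4 in SPO, 4 between the media in WT and 4 in ime4. The lists shrank in the same way. Leaving out 1 array gave 4 to 5, 6 to 8, 7 to 8, 8 to 8 and, for the interaction, 4 to 6 members called. With the replicate number as a block the counts were 5, 6, 8, 8 and 4. Deviations of same-numbered arrays from their group means correlated across genes at -0.02 to 0.031. Taken on normalized values of 2 or 3 arrays a group, these correlations cannot tell whether same-numbered arrays were handled together. Silencing partners called in YPD were 4, or 2 with the block, with an intensity trend, without the dimmest sets or without WT replicate 1 in YPD. SIR2 homologs called in YPD were 2, or 1 with quantile normalization, with a trend, without the dimmest sets or without WT replicate 1 or 2 or ime4 replicate 2 in YPD. HO regulators with an interaction were 9, or 5 without ime4 replicate 2 in YPD. The cause of these changes was not tested, except that of the shorter lists. No member had a further probe set to try. Values near background, those of HMRA1 in ime4 and HMLALPHA1 in WT, limit the size of their differences.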
